A study of Mus musculus with 2 samples.

Results

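Adherent S-phase cells are the 758 cells, of 5051 adherent cells kept after filtering, with the highest share of transcripts from 8 genes of DNA replication. They were chosen by measured values. For each cell of the adherent library, the unique molecular identifiers (UMIs, counts of captured RNA molecules) of Hist1h2ap, Hist1h1b, Hist1h2ae, Rrm2, Dscc1, Cdc6, Ccne2 and Ung were summed and divided by all UMIs of the cell on the genes left, and the top 15% of cells were taken. The 2526 cells in the bottom 50% of the same score served as the comparison, and the 1767 cells between them are given as the middle 35%. The series held 10715 called cells in all, of which 9327 were kept.

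The cells come from GL261, a mouse glioma cell line of C57BL/6 origin, which the labels call an astrocytoma. Adherent cells were grown in DMEM with 10% serum to about 80% confluency. The growth factors EGF and FGF, each at 20 ng/ml, and B-27 supplement were added for neurosphere cells, which were collected after 12 days and broken up into single cells. Each culture gave 1 library by the 10x Genomics 3' protocol after both had been trypsinized and frozen with 10% DMSO, and no gene of either culture was targeted. Called cells held 68531063 UMIs in the adherent and 82832873 UMIs in the neurosphere library, and 12 cell barcodes, 3 of them from S-phase cells, occurred in both libraries. With 1 library per culture there is no replicate check, so no test was run, no p-value is given, and every interval below is an exact 95% interval that covers counting error only.

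A dividing cell copies its DNA once in S phase. Before it, the origin recognition complex and Cdc6 load the MCM helicase onto replication origins. During it, DNA polymerases, the sliding clamp and its loaders copy the strands, ribonucleotide reductase supplies the deoxynucleotides, and new histones package the copied DNA. Transcripts of the replication-dependent histones accumulate during S phase and are removed at its end, whereas transcripts of mitotic genes build up through G2 and into mitosis. Most of the genes that serve licensing and copying are regulated by the E2F transcription factors.

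The 8 score genes lie on 6 chromosomes in the GENCODE M21 annotation of GRCm38, the assembly that mm10 denotes. The histone genes share chromosome 13: Hist1h2ap, a histone H2A gene, at chr13:21833026-21833507, Hist1h1b, a linker histone H1 gene, at chr13:21779883-21780625, and Hist1h2ae, another H2A gene, at chr13:23570517-23571220, all on the minus strand. Rrm2, the small subunit of ribonucleotide reductase, lies at chr12:24708241-24714146 on the plus strand. Cdc6, the licensing ATPase, lies at chr11:98907801-98923940 on the plus strand. Ccne2 encodes cyclin E2, which drives entry into S phase with Cdk2, and lies at chr4:11191351-11204779 on the plus strand. Ung encodes the uracil-DNA glycosylase that removes uracil from DNA and lies at chr5:114130386-114139323 on the plus strand. Dscc1, part of the clamp loader used in sister chromatid cohesion, lies at chr15:55076099-55090491 on the minus strand. UMIs were counted per gene, so exons and transcripts of a gene share a single count.

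The start regions of these genes differ in sequence, and 7 of them are printed because the score genes and their closest companions fall into classes with different promoter letters. Each is the 200 bases before the RefSeq start site on the strand of the gene, 5' to 3', from the RefSeq promoter table of GRCm38.p6. Capitals mark an E2F motif (TTTCCCGC, TTTGGCGC, TTTCGCGC or TTTGCCGC), a CCAAT box or a TATAAA box on either strand.
Hist1h1b, chr13:21780626-21780825, minus strand: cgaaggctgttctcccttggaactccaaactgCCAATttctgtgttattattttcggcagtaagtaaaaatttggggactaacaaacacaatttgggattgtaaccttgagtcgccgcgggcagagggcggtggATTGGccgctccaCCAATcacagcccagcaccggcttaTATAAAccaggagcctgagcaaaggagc
Hist1h1e, chr13:23622559-23622758, minus strand: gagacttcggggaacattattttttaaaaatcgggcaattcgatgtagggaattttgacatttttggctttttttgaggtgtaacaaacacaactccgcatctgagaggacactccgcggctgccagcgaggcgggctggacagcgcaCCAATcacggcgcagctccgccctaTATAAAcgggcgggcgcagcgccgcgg
Hist1h2ap, chr13:21833476-21833675, minus strand: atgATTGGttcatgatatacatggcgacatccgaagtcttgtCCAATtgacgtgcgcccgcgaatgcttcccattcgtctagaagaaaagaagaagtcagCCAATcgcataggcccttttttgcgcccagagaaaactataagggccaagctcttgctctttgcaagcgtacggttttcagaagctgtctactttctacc
Rrm2, chr12:24708054-24708253, plus strand: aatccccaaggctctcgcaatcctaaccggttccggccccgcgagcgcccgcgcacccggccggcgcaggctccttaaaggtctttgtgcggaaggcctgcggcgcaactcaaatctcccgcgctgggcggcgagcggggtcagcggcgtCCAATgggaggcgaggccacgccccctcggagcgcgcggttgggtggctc
Cdc6, chr11:98907951-98908150, plus strand: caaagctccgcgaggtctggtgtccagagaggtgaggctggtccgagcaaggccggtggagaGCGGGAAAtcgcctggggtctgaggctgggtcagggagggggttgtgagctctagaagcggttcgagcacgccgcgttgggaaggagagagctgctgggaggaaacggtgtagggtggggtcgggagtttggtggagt
Mcm5, chr8:75109309-75109508, plus strand: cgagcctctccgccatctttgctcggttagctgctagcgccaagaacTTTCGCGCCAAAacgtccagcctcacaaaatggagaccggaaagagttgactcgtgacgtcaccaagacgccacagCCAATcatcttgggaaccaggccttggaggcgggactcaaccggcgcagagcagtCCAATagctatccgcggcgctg
Ung, chr5:114130235-114130434, plus strand: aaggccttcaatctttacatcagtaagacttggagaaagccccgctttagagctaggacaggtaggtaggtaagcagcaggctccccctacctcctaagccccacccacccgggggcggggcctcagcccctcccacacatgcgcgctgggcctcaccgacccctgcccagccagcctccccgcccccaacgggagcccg
In Hist1h1b and Hist1h1e, both linker histone genes, a CCAAT box and a TATAAA box followed each other, and the TATAAA box began 28 bases before the start in Hist1h1b and 27 bases before it in Hist1h1e. Hist1h2ap had 3 CCAAT boxes and no TATAAA, and Rrm2 had 1 CCAAT box. Cdc6 had an E2F motif on the opposite strand that began 138 bases before its RefSeq start, and Mcm5 had overlapping E2F motifs on both strands that began 153 and 149 bases before its start. Ung held none of these letters in this window. Hist1h2ae had 2 CCAAT boxes and, on the opposite strand, a TATAAA box that began 142 bases before its start. Ccne2 and Dscc1 are named only. The RefSeq starts used here can differ from the GENCODE positions given above. The Cdc6 window lies inside the GENCODE span of the gene, and the windows of Hist1h2ap, Rrm2 and Ung overlap their spans in part.

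The same letters were counted in the 300-base windows (250 bases before and 50 after the start) of the RefSeq promoter table, which has 32851 rows. An E2F motif was present in 2.26% of all windows, in 28 of 85 windows (32.9%) of measured genes from the 7 replication lists described below, and in 1 of 36 windows (2.78%) of G2/M genes. A CCAAT box was present in 37.4% of all windows, in 21 of 24 histone windows (87.5%), in 27 of 36 G2/M windows and in 48 of 85 replication windows (56.5%). TATAAA was present in 13.6% of all windows, in 13 of 24 histone windows (54.2%) and in 1 of 36 G2/M windows. TTTGAA, the letters of the cell cycle homology region, was present in 17.9% of all windows, in 26 of 36 G2/M windows (72.2%), in 12 of 24 histone windows (50.0%) and in 14 of 85 replication windows (16.5%). Windows were matched for 85 of 103 replication genes, 24 of 32 histone genes and 36 of 40 G2/M genes. These are matches of letters, not binding sites, and nothing was measured at these promoters.

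Replication-dependent histone transcripts are known to end in a stem-loop in place of a poly(A) tail, while the 3' protocol primes on poly(A). The stem-loop was found after the coding sequence of 23 of the 32 histone genes with enough UMIs or in the score, by searching the GENCODE M21 transcripts for a 16-base run that opens with GG and pairs its first with its last 6 bases. Some transcript models, such as that of the score gene Hist1h1b, stop at the end of the coding sequence, so no stem-loop could be found in them. The stem-loop is printed for 4 of the 23 genes with the 16 bases in capitals.
Hist1h2ap: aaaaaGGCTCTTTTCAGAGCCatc
Hist1h2ae: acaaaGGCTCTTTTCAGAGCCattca
Hist1h3c: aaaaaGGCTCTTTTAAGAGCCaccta
Hist1h1e: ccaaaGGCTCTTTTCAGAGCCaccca
The transcript model of Hist1h2ap stops 3 bases after the stem-loop, that of Hist1h2ae runs on for 151 bases, that of Hist1h3c for 74 bases and that of Hist1h1e for 1153 bases. Which of these ends were captured cannot be read from counts per gene. The coding sequences of Hist1h2ap and Hist1h2ao are identical over 393 bases, and those of Hist1h2ap and Hist1h2ae are identical at 98.5% of positions, so the split of UMIs between H2A copies is uncertain.

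The score had no gap at the chosen limit. S-phase cells had a score of 0.0749% to 0.274% of their UMIs, with a median of 0.101%, which came from 2 to 40 UMIs of the 8 genes per cell (median 10). The 5 members nearest the limit had scores of 0.0749% to 0.0750% from 7 to 9 UMIs, and the 5 cells just outside had 0.0746% to 0.0748% from 5 to 10 UMIs. In all, 130 members lay less than 10% above the limit, and 146 cells lay within 10% below it. The members are thus the upper end of a continuous range and not a separate class. In the bottom 50%, 1374 cells (54.4%) had no UMI of any of the 8 genes and the highest count was 6.

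**Figure D1:**
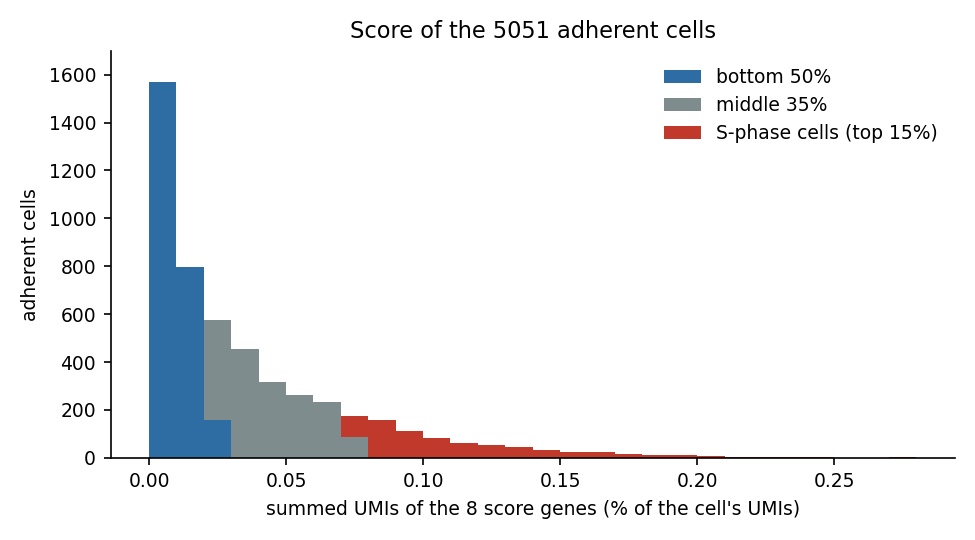
Histogram of the score (summed UMIs of the 8 genes as a percent of each cell's UMIs, x axis) over the 5051 adherent cells (y axis, number of cells). Bars are stacked by group, and the S-phase cells (red) start at 0.0749% with no gap to the middle 35% (grey).

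Because the score is a plain sum, the abundant histone transcripts carried most of it. The 3 histone genes gave 82.7% of the members' score UMIs. All 3 were detected in 519 members (68.5%), 150 members (19.8%) had UMIs of histone genes only, and 5 members had none of a histone gene. At least 5 of the 8 genes were detected in 243 members (32.1%), 54 members had 2 of the genes and 4 members had 1.

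The levels of the score genes are the values that chose the members and are given as a description. They are given as CPM, the UMIs of a gene summed over the cells of a group per 1000000 UMIs of that group, without correction for gene length, and so are compared between groups and not between genes. Hist1h2ap was at 393 CPM in S-phase cells, 137 in the middle 35% and 15.9 in the bottom 50%. Hist1h2ae was at 335, 113 and 16.8 CPM, and Hist1h1b at 205, 70.6 and 10.1 CPM in the same order. All 3 histone genes were thus lower with each step down the score. Rrm2 was at 89.3, 47.1 and 13.0 CPM, Dscc1 at 42.9, 25.9 and 6.67, Cdc6 at 28.2, 17.3 and 3.99, and Ccne2 at 16.8, 7.20 and 2.29. These 4 followed the same order with smaller steps. Ung was at 17.5 CPM in S-phase cells, 20.4 in the middle 35% and 9.20 in the bottom 50%, so it was not highest in the members.

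**Figure D2:**
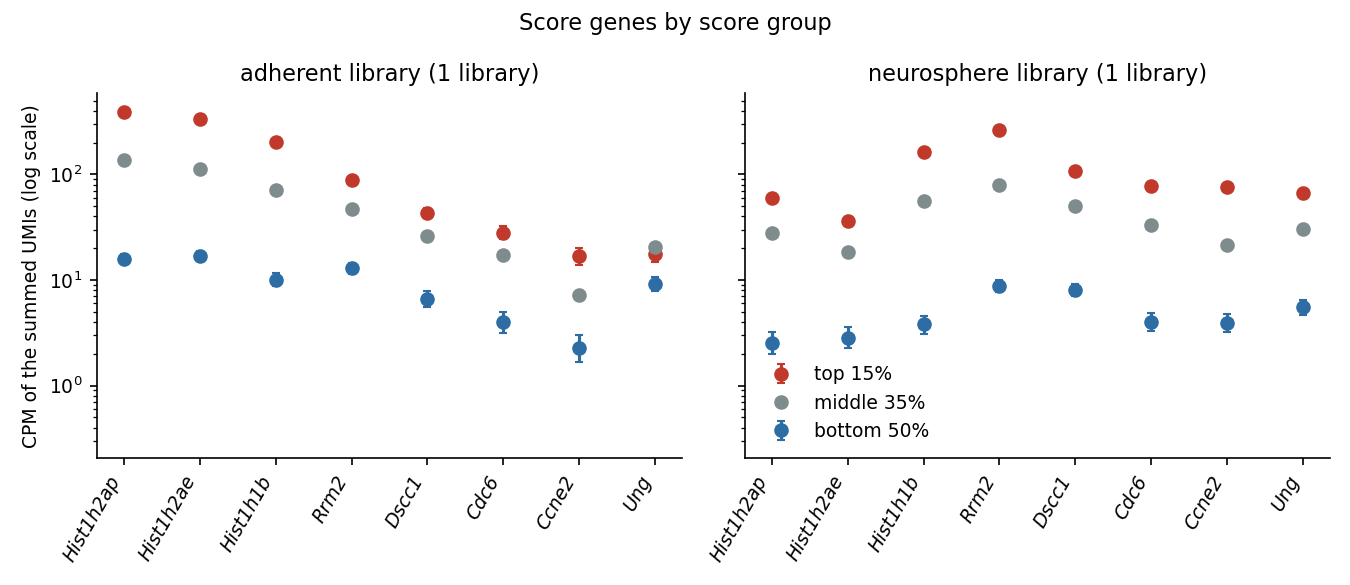
CPM (log axis) of the 8 score genes (x axis) summed over the top 15%, middle 35% and bottom 50% of cells by score, in the adherent library (left) and the neurosphere library (right). Bars are exact 95% Poisson intervals for the top and bottom groups, and in the adherent library Ung is the gene whose middle value (20.4 CPM) lies above its top value (17.5 CPM).

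To see what each gene did when it was not part of the choice, the cells were scored again with each gene left out in turn and the left-out gene was compared between the new top 15% and bottom 50%. For the histones the log2 ratio of the left-out gene was 2.58 (2.48 to 2.69) for Hist1h2ap, 2.63 (2.51 to 2.75) for Hist1h2ae and 2.73 (2.58 to 2.88) for Hist1h1b. The other 2 histone genes still took part in each of these choices, and in cells chosen by the 5 non-histone genes alone the log2 ratios were 1.09 for Hist1h2ap, 1.04 for Hist1h2ae and 1.26 for Hist1h1b. The ratio was 1.76 (1.33 to 2.20) for Ccne2, 1.54 (1.28 to 1.79) for Dscc1, 1.51 (1.33 to 1.69) for Rrm2 and 1.30 (0.99 to 1.61) for Cdc6. Ung stood apart, at 13.4 CPM in the new top 15% and 16.2 CPM in the new bottom 50%, a log2 ratio of -0.28 (-0.61 to 0.05). Cells with many histone transcripts therefore did not hold more Ung transcripts in the adherent library. In the neurosphere library all 8 left-out genes were higher in the new top 15%, with log2 ratios from 1.93 for Ung to 3.28 for Hist1h1b.

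Of the 10603 genes with at least 100 UMIs over S-phase cells and the bottom 50%, score genes aside, 369 genes (3.48%) were at least 1.5-fold higher in S-phase cells and 293 genes (2.76%) were at least 1.5-fold lower. The median log2 ratio over all these genes was 0.01. Since the cells were chosen on the same UMIs, these counts describe the groups and are no test. Against the background of 3.48%, 68 of the 103 measured genes of 7 DNA replication lists were at least 1.5-fold higher and none was 1.5-fold lower, with a median log2 ratio of 0.76. None of these genes entered the score, and their direction is that of the label.

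The MCM helicase, the ring that unwinds the DNA at the fork, was higher as a whole. All 6 subunits passed 1.5-fold, with log2 ratios from 0.73 to 1.13. Mcm5 was at 59.2 CPM in S-phase cells, 39.8 in the middle 35% and 27.1 in the bottom 50%, a log2 ratio of 1.13 (0.94 to 1.31). Mcm3 was at 101, 67.6 and 51.3 CPM, a log2 ratio of 0.98 (0.85 to 1.12). The other 4 subunits showed the same order of the groups with smaller steps.

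Of the 20 genes of origin licensing and firing, 11 were at least 1.5-fold higher (list median 0.60). The differences varied widely within the list. Mcm10, which is needed to activate the helicase, was at 31.9 CPM in S-phase cells and 9.98 in the bottom 50%, a log2 ratio of 1.68 (1.40 to 1.95). Ticrr, which brings the activating factors to the helicase, had a log2 ratio of 1.84 (1.39 to 2.29), and Cdc45, a part of the active helicase, one of 1.27 (1.04 to 1.49). The licensing factors had log2 ratios of 0.61 (0.41 to 0.80) for Cdt1 and 0.73 (0.28 to 1.17) for Orc1, a subunit of the origin recognition complex. Gmnn, the inhibitor of Cdt1, had a log2 ratio of 0.87 (0.77 to 0.96).

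The copying machinery was higher by similar steps. Among 14 DNA polymerase and clamp genes, 9 passed 1.5-fold (median 0.69). Pclaf, a partner of the sliding clamp, was at 408 CPM in S-phase cells, 278 in the middle 35% and 151 in the bottom 50%, and Pcna, the clamp itself, was at 276, 200 and 146 CPM. Among 17 measured genes of clamp loading and the fork, 14 passed (median 0.88, highest log2 ratio 1.54). They included Clspn, the checkpoint adaptor at the fork, at a log2 ratio of 1.36 (1.19 to 1.54). Fen1, the flap nuclease of the lagging strand, was at 1.29 (1.07 to 1.51). Lig1, which seals the lagging strand fragments, had a log2 ratio of 1.06 (0.93 to 1.19). Among 14 genes of nucleotide supply, 7 passed (median 0.56), with Tk1, thymidine kinase, at 1.31 (1.16 to 1.46) and Rrm1, the large subunit of ribonucleotide reductase, at 1.24 (1.09 to 1.39). Dut, which removes dUTP, had a smaller log2 ratio of 0.50 (0.44 to 0.55), at 609 CPM in S-phase cells and 432 in the bottom 50%.

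Repair and cohesion genes that act on replicating DNA had a list median of 1.19, with 14 of 20 genes at least 1.5-fold higher, and of 0.73 in cells chosen by the 5 other score genes. Rad51ap1, which acts in homologous recombination, was at 107 CPM in S-phase cells, 71.0 in the middle 35% and 29.1 in the bottom 50%, a log2 ratio of 1.88 (1.73 to 2.04). Esco2, which acetylates cohesin during S phase, was at 38.7, 22.3 and 9.64 CPM, a log2 ratio of 2.01 (1.74 to 2.27). Neil3, a glycosylase that acts on crosslinks, had a log2 ratio of 1.77 (1.45 to 2.08), Brip1 1.57 (1.32 to 1.82) and Brca1, the recombination factor, 1.51 (1.29 to 1.73). The cohesin ring itself differed little, with log2 ratios of 0.34 (0.23 to 0.45) for Smc3 and 0.31 (0.21 to 0.42) for Rad21. Among 12 chromatin assembly genes, 7 passed 1.5-fold (median 0.70), with Chaf1b, a subunit of the histone chaperone CAF-1, at 1.45 (1.14 to 1.75). Slbp, which binds the histone stem-loop printed above, was at 106, 76.0 and 65.3 CPM, a log2 ratio of 0.70 (0.57 to 0.82).

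**Figure D3:**
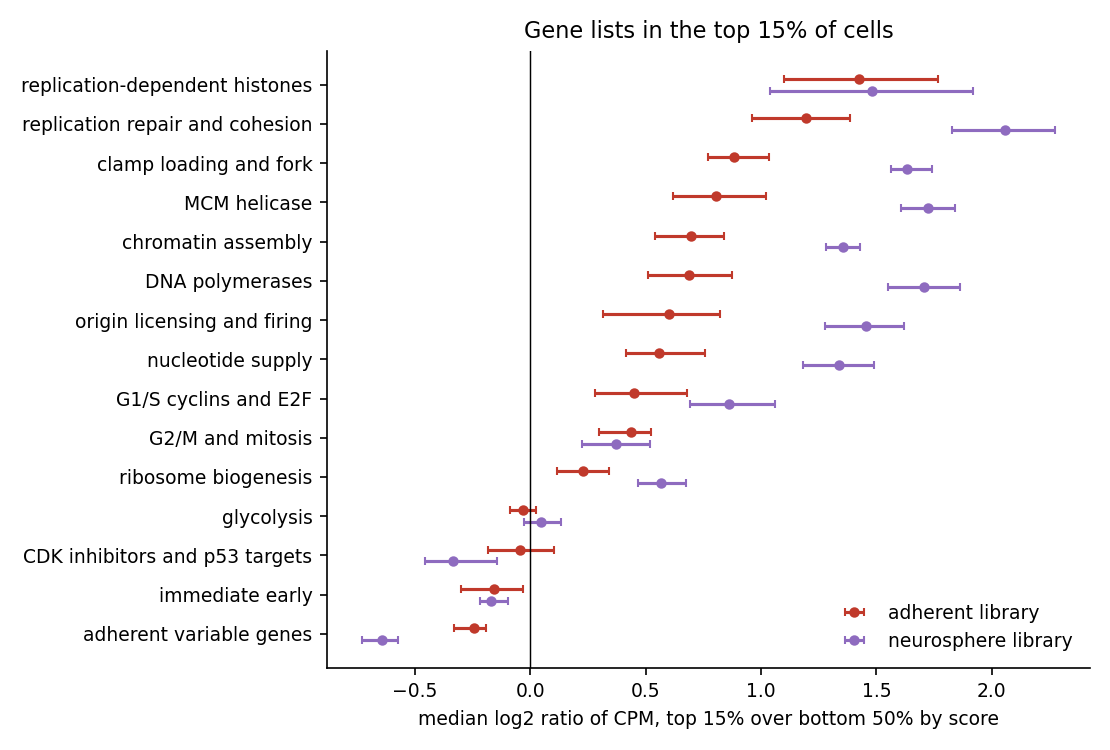
Median log2 ratio of CPM (x axis) of the top 15% over the bottom 50% of cells by score for 15 gene lists (y axis), in the adherent library (red) and the neurosphere library (purple). Bars run from the median of the genes' lower to the median of their upper 95% counting bounds, and the 7 replication lists lie between 0.56 and 1.19 in the adherent and between 1.34 and 2.06 in the neurosphere library.

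Most measured histone genes outside the score were higher in S-phase cells, which 3 histone genes of the score had largely chosen. Of 62 replication-dependent histone genes, 29 had at least 100 UMIs over both groups, and 25 of these were at least 1.5-fold higher, with a median log2 ratio of 1.42. A gene can reach 100 UMIs through its level in S-phase cells, so this median describes the 29 genes and not all 62. In cells chosen by the 5 other score genes, without the histones, the median was 0.20 over 30 measured histone genes and 4 of them were at least 1.5-fold higher. Hist1h1e, a linker histone gene, was at 286 CPM in S-phase cells, 150 in the middle 35% and 75.9 in the bottom 50%, a log2 ratio of 1.92 (1.82 to 2.01). Hist2h2ac, an H2A gene on chromosome 3, was at 43.6, 18.1 and 5.99 CPM, a log2 ratio of 2.87 (2.56 to 3.17). Hist1h1a, another linker histone gene, had a log2 ratio of 2.24 (2.02 to 2.47) and Hist1h3c, a histone H3 gene, one of 2.06 (1.88 to 2.25). The genes outside this pattern were Hist1h2bc at -0.26 (-0.79 to 0.25), Hist4h4 at -0.19 (-0.64 to 0.25), Hist2h4 at 0.09 (-0.42 to 0.59) and Hist1h3h at 0.55 (0.02 to 1.06). Histone variants that are used outside S phase did not share the difference. H2afz was at 3412 CPM in S-phase cells and 3363 in the bottom 50%, a log2 ratio of 0.02 (0.00 to 0.04), and H3f3a had a log2 ratio of -0.05 (-0.09 to -0.02). Of 10 measured variants, 1 was at least 1.5-fold higher, H2afx, the variant phosphorylated at DNA breaks, at 0.66 (0.52 to 0.81), and 1 was lower, Cenpa, given below.

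Regulators of S-phase entry differed by class. The D-type cyclins, which act in G1, were close to level, with log2 ratios of -0.11 (-0.16 to -0.07) for Ccnd1, -0.02 (-0.08 to 0.04) for Ccnd2 and 0.01 (-0.09 to 0.10) for Ccnd3. Ccne1, the partner cyclin of the score gene Ccne2, was at 34.9 CPM in S-phase cells and 23.1 in the bottom 50%, a log2 ratio of 0.60 (0.38 to 0.82). E2f1, an activator of S-phase genes, had a log2 ratio of 0.56 (0.33 to 0.80), below the 1.68 (1.26 to 2.09) of E2f8 and the 1.34 (0.84 to 1.83) of E2f7, which repress the same genes later in the cycle. Beside Ccne1, E2f7 and E2f8, the 1.5-fold line was passed by Rbl1, the pocket protein p107, at 0.99 (0.73 to 1.25) and Skp2, a ubiquitin ligase subunit, at 0.64 (0.43 to 0.84), which made 5 of 17 measured genes (median 0.45). Of 14 measured CDK inhibitors and p53 targets none was 1.5-fold higher and 1 was 1.5-fold lower, Btg2, an antiproliferative gene, at -0.73 (-0.97 to -0.49). Cdkn1a, the p21 inhibitor, was at 250 CPM in S-phase cells and 248 in the bottom 50%.

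G2/M genes were mixed in S-phase cells. Of 40 genes, 14 were at least 1.5-fold higher and 3 were at least 1.5-fold lower (median 0.43). The higher genes included Aurkb, a kinase of the chromosomal passenger complex, at a log2 ratio of 1.36 (1.20 to 1.51), and Top2a, the topoisomerase that untangles copied DNA, which was at 489 CPM in S-phase cells, 397 in the middle 35% and 204 in the bottom 50%. The lower genes were Cdkn3, a phosphatase, at -0.87 (-1.03 to -0.70), Cdc20, the activator of the anaphase-promoting complex, at -0.71 (-0.80 to -0.62), and Cenpa, the centromeric histone, at -0.63 (-0.69 to -0.57). Ccnb2, a mitotic cyclin, was also lower, at -0.46 (-0.59 to -0.33), and Plk1, a mitotic kinase, was level at 0.00 (-0.16 to 0.16). As the share of a cell's UMIs, the 40 genes had a median of 0.52% in S-phase cells, 0.59% in the middle 35% and 0.31% in the bottom 50%. Of the members, 104 (13.7%, 11.4% to 16.4%) lay over the library's 85th percentile of this share, against 19.5% of the middle 35% and 12.3% of the bottom 50%. The cells richest in G2/M transcripts were thus found most often in the middle of the score.

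The sign of the G2/M difference depended on which score genes chose the cells. When the top 15% was taken by the 3 histone genes alone, 22 of the 40 G2/M genes were at least 1.5-fold higher and 1, Cdkn3, was lower, with a median log2 ratio of 0.63 (over all 10605 genes, 3.09% were higher and 3.16% lower). When it was taken by the 5 other genes alone, none was 1.5-fold higher and 6 were lower (Aurka, Ccnb2, Cdc20, Cdc25c, Cenpa and Plk1), with a median of -0.34 (over all 10549 genes, 2.03% were higher and 1.69% lower). Top2a had a log2 ratio of 1.42 (1.36 to 1.48) under the histone choice and 0.05 (-0.02 to 0.12) under the other. Cenpf, a kinetochore gene that rises in G2, had ratios of 0.64 (0.56 to 0.73) and -0.56 (-0.67 to -0.45). The MCM genes ran the other way. The MCM list had a median of 0.54 under the histone choice and 1.06 under the other, Cdt1 had 0.24 (0.04 to 0.44) and 1.04 (0.85 to 1.23), and Ccne1, a G1/S cyclin gene, had 0.33 (0.11 to 0.55) and 0.86 (0.64 to 1.08). The list of origin licensing and firing as a whole was mixed, with medians of 0.37 and 0.65 whose counting bounds overlap, and its member Dbf4 had 0.30 (0.18 to 0.43) and -0.21 (-0.35 to -0.06). For Slbp the ratios were 0.53 (0.40 to 0.66) and 0.74 (0.61 to 0.87), and for Pcna 0.73 (0.65 to 0.81) and 0.78 (0.69 to 0.86), so Pcna differed little between the choices.

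The replication genes as a whole were higher under both partial scores. Of 103 genes, 53 passed 1.5-fold under the histone choice and 59 under the choice by the other 5 genes, and none was 1.5-fold lower under either. The left-out score genes were higher too. In cells chosen by the histones, the other 5 genes summed to 144 CPM against 73.0 CPM in their bottom 50%, a 1.97-fold difference, although Ung alone was lower at a log2 ratio of -0.55 (-0.88 to -0.22). In cells chosen by the other 5 genes, the histones summed to 453 against 209.8 CPM, a 2.16-fold difference, while 4 of the 30 measured histone genes outside the score were at least 1.5-fold higher (median 0.20). The cell sets themselves overlapped in part. Of the 758 cells each choice gave, 202 (26.6%) were shared between them, where unrelated choices would share 15%. Both choices held deeper cells than their bottom 50%. The median UMIs were 9814.5 against 7337.5 for the histone choice and 8499.5 against 7260 for the other. The part of depth in the overlap was not tested. By the full score, 648 of the histone choice (85.5%) and 306 of the other choice (40.4%) were S-phase cells. The 5 other genes are sparse, so every cell in the bottom 50% of that choice had none of their UMIs, as did 2636 of the 5051 cells.

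**Figure D4:**
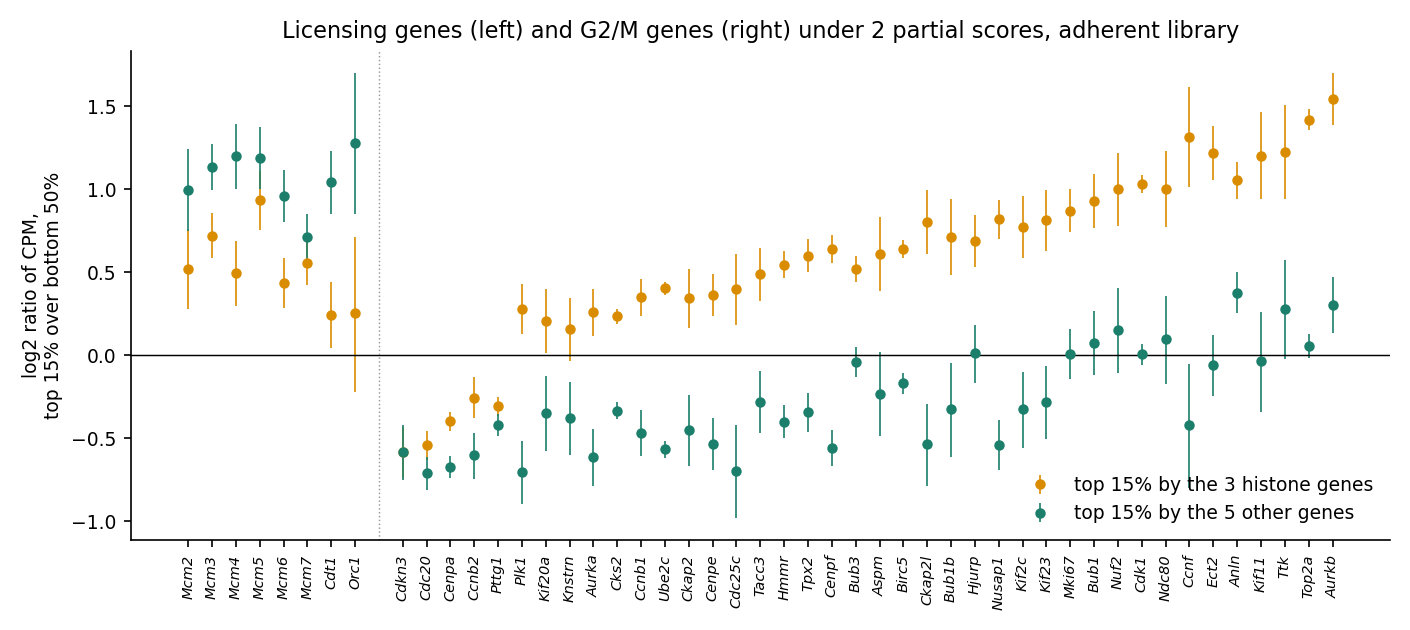
Log2 ratio of CPM (y axis) of the top 15% over the bottom 50% of adherent cells for 8 licensing genes and 40 G2/M genes (x axis), with cells chosen by the 3 histone genes (orange) or by the 5 other score genes (green). Bars are exact 95% intervals of counting error, and the histone choice lies above the other for Top2a (1.42 and 0.05) and below it for Cdt1 (0.24 and 1.04).

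The histone share of the score UMIs was then used to divide the S-phase cells themselves. This split reuses the score genes of both partial scores, so it is no independent check of their contrast. The 758 members were split at a histone share of 84.6% of their score UMIs into 379 histone-rich and 379 histone-poor cells. All 40 G2/M genes had a log2 ratio above 0 in histone-rich cells and 12 were at least 1.5-fold higher (median 0.47), while over all 7369 genes measured in this split 1.11% were higher and 0.624% lower. Ckap2l, a mitotic spindle gene, was at 52.3 CPM in histone-rich and 26.6 CPM in histone-poor cells, and Cenpf was at 252 and 150 CPM, a log2 ratio of 0.75 (0.60 to 0.90). All 6 MCM genes lay below 0 and none was 1.5-fold lower (median -0.42), where 3821 of all 7369 genes lay above 0, and their summed level was 353 CPM in histone-rich and 475 CPM in histone-poor cells. Mcm3 was at 87.9 and 116 CPM, a log2 ratio of -0.40 (-0.61 to -0.20), and Rpa2, a subunit of the single-strand binding protein, was at 85.1 and 124 CPM. Histone-rich cells held a median of 9938 UMIs and histone-poor cells 9356, and after the members were thinned to 5000 UMIs each the medians were 0.42 for the G2/M list and -0.32 for the MCM genes. Outside the cell cycle, Spp1, the osteopontin gene, was at 9.21 CPM in histone-rich and 32.3 CPM in histone-poor cells, but 3 cells held 67.2% of the Spp1 UMIs of histone-poor cells, and without the 3 highest cells of each group the log2 ratio was -0.83 in place of -1.81. Cxcl10, an interferon-induced chemokine, was at 235 and 455 CPM, with log2 ratios of -0.95 with and -0.87 without the 3 highest cells.

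The members were also divided by score rank. Over the highest, middle and lowest scoring 253, 253 and 252 members, the summed level of the 6 MCM genes was 482, 372 and 383 CPM, and that of the 40 G2/M genes was 6021, 6756 and 6448 CPM. The MCM sum was largest in the highest scoring members, the G2/M sum was not, and no interval was set on these sums.

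S-phase cells had more UMIs per cell. Their median was 9684 UMIs per cell, against 9150 in the middle 35% and 7197 in the bottom 50%, a ratio of 1.35 between top and bottom. They also held a median of 3355.5 detected genes against 2772.5, a ratio of 1.21, but when each cell was thinned to 5000 UMIs the medians were 2292 and 2218, a ratio of 1.03. The thinned values leave out 34 members and 415 cells of the bottom 50% that were too shallow. More genes per cell in the members thus came with their greater depth. With both groups limited to cells between the members' lower and upper UMI quartiles, the median log2 ratio was 0.72 for the replication lists and 1.51 for the histones, and 0.18 for the G2/M list in place of 0.43. A larger cell and better capture cannot be told apart from UMI totals. Among the members, 34 (4.49%) had more UMIs than 95% of the library's kept cells. The median share of mitochondrial UMIs was 1.97% in S-phase cells and 2.05% in the bottom 50%, and that of ribosomal protein genes was 28.6% and 29.9%, so RNA quality differed little between the groups by these measures.

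Markers of immune cells were nearly absent from the members. Of the markers given here, only Cd68 reached 100 UMIs, at 5.32 CPM in S-phase cells and 13.5 CPM in the bottom 50%. Ptprc, Itgam, Tyrobp and Cd3e had 0 UMIs in S-phase cells, which allows up to 0.390 CPM each. Csf1r was at 0.260 CPM and Aif1 at 0.130 CPM. The nuclear noncoding RNAs Malat1 and Neat1, which mark damaged cells or nuclei when high, were at 2787 and 135 CPM in S-phase cells and at 3265 and 212 CPM in the bottom 50%.

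Genes that vary between other states of adherent cells were level or lower in S-phase cells. Of 16 such genes none was 1.5-fold higher and 5 were 1.5-fold lower (median -0.24). Spp1 was at 20.3 CPM in S-phase cells, 45.1 in the middle 35% and 81.0 in the bottom 50%, a log2 ratio of -2.00 (-2.25 to -1.76). Few cells carried it: 48 members and 267 cells of the bottom 50% had a UMI of Spp1, and 3 cells held 51.3% of the members' Spp1 UMIs. Without the 3 highest cells of each group, a setting chosen after the values were seen, the log2 ratio was -2.63. Mt3, a metallothionein, had a log2 ratio of -0.75 (-0.86 to -0.65), and Sat1, which breaks down polyamines, one of -0.74 (-0.79 to -0.70). Lcn2, which encodes lipocalin, was at 4.55 CPM against 11.6 CPM, a log2 ratio of -1.35 that was -1.99 without the 3 highest cells of each group. Krt8, a keratin, had a log2 ratio of -1.56 (-2.51 to -0.72). Cxcl10 was the exception, at 340 CPM in S-phase cells and 245 in the bottom 50%, a log2 ratio of 0.47 (0.40 to 0.54). Immediate early genes had 2 of 12 measured members 1.5-fold lower and none higher (median -0.16), namely Dusp1, a phosphatase of MAP kinases, at -0.59 (-0.77 to -0.41) and Zfp36, which destabilizes mRNAs, at -1.15 (-1.85 to -0.50).

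Growth and metabolic genes differed less than replication genes. Of 15 glycolysis genes none passed 1.5-fold in either direction (median -0.03), and of 14 ribosome biogenesis genes 2 were higher, Nolc1 at 0.59 (0.52 to 0.67) and Rrp1b at 0.65 (0.47 to 0.83), and none lower (median 0.23). Ncl, nucleolin, was at 1072 CPM in S-phase cells and 915 in the bottom 50%. Of 7 measured purinergic receptors and metalloproteinases named by the study none passed 1.5-fold in either direction (median -0.05). P2rx7, an ATP-gated channel, was at 12.7 CPM in S-phase cells and 13.5 CPM in the bottom 50%, a log2 ratio of -0.09 (-0.44 to 0.25).

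Genes outside all of the lists differed as well. Fbxo5, the inhibitor of the anaphase-promoting complex, was at 87.8 CPM in S-phase cells, 69.6 in the middle 35% and 26.4 in the bottom 50%, a log2 ratio of 1.73 (1.57 to 1.90). Kif15, a spindle kinesin, had a log2 ratio of 1.47 (1.30 to 1.64), Melk, a kinase of dividing cells, 1.43 (1.23 to 1.63), and Cdca5, the cohesion factor sororin, 1.67 (1.37 to 1.96). Atad2, a chromatin ATPase, was at 155 CPM in S-phase cells and 77.1 in the bottom 50%, and Dnajc9, a chaperone for histones, at 117 and 53.8 CPM. Siah1b, a ubiquitin ligase gene, had a log2 ratio of 1.49. Lower genes included E330020D12Rik, at 19.5 CPM in S-phase cells and 45.3 in the bottom 50%, Kdm5b, a histone demethylase, at 6.75 CPM in S-phase cells and 18.0 in the bottom 50%, Il11, a cytokine of the IL-6 family, at 17.1 and 35.1 CPM, and Nupr1, a stress-induced chromatin protein, at 122 and 205 CPM. In the middle 35%, levels lay between the top and bottom values, at 11.1 CPM for Kdm5b, 32.6 for Il11 and 158 for Nupr1.

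The same score in the neurosphere library picked cells with a different mix of score genes. Its top 15% held 641 of 4276 kept cells, in which Rrm2 was at 266 CPM (89.3 in adherent S-phase cells), Hist1h2ap at 60.5 CPM (393), Hist1h2ae at 36.2 CPM (335) and Hist1h1b at 163 CPM (205). With the adherent limit of 0.0749%, 378 neurosphere cells (8.84%, 8.01% to 9.73%) would have been members, against the 15% of adherent cells set by the rule. After thinning both libraries to 5000 UMIs, the limit was set anew at 0.08%, the 85th percentile of thinned adherent cells, and 7.27% of neurosphere cells and 12.7% of adherent cells lay over it. The 2 libraries differ in culture, depth and capture together, and how each bears on these shares cannot be told apart. The top and bottom groups also differed more in depth in the neurosphere library, with a median UMI ratio of 1.52 against 1.35.

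Replication genes had larger differences in the neurosphere library. There, 767 of 11491 genes (6.67%) were at least 1.5-fold higher in the top 15% and 1533 (13.3%) were at least 1.5-fold lower, and 91 of 103 replication genes were higher and 1, the polymerase subunit Pold4, was lower (median 1.65 against 0.76 in the adherent library). Mcm5 was at 108 CPM in the neurosphere top 15% and 26.9 in its bottom 50%, beside 59.2 and 27.1 CPM in the adherent library. Rad51ap1 was at 182 and 25.2 CPM, beside 107 and 29.1 CPM. Ccne1 was at 94.9 and 20.9 CPM, beside 34.9 and 23.1 CPM. The G2/M list had similar medians, 0.37 in the neurosphere and 0.43 in the adherent library. The difference between the libraries was not tested.

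Unsupervised clusters placed most S-phase cells together. Clustering of all kept adherent cells (Seurat, resolution 1.0) gave 10 clusters, and cluster 0 held 425 members (56.1%, 52.5% to 59.6%), which made up 52.9% of its 804 cells. Its 10 leading genes by fold were 5 histone genes, Rrm2, Cdc6, Rad51ap1, Brca1 and Spp1. Spp1 was a leading gene of cluster 0, at a log2 ratio of 1.18, and also of cluster 4, at 1.63. In S-phase cells it was nevertheless lower than in the bottom 50%. Within cluster 0 the 425 members held 72 UMIs of Spp1 and the 379 other cells 769 UMIs (208 CPM). Of the latter, 219 came from 1 cell. Cluster 1, led by the mitotic genes Cenpf, Nusap1, Cenpe and Top2a, held a further 149 members (19.7%, 16.9% to 22.7%). Cluster 3, with Areg, Ube2c and Aurka among its leading genes, held 68 members and cluster 6, led by Tex14, held 55. Leading genes were ranked by fold after 10 was added to each CPM. The other 6 clusters held between 2 and 25 members each. The members outside cluster 0 were thus spread over clusters led by other genes. The clusters were built on 2000 variable genes that included 6 of the score genes (all but Dscc1 and Ung), so the score and the clusters share genes.

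**Figure D5:**
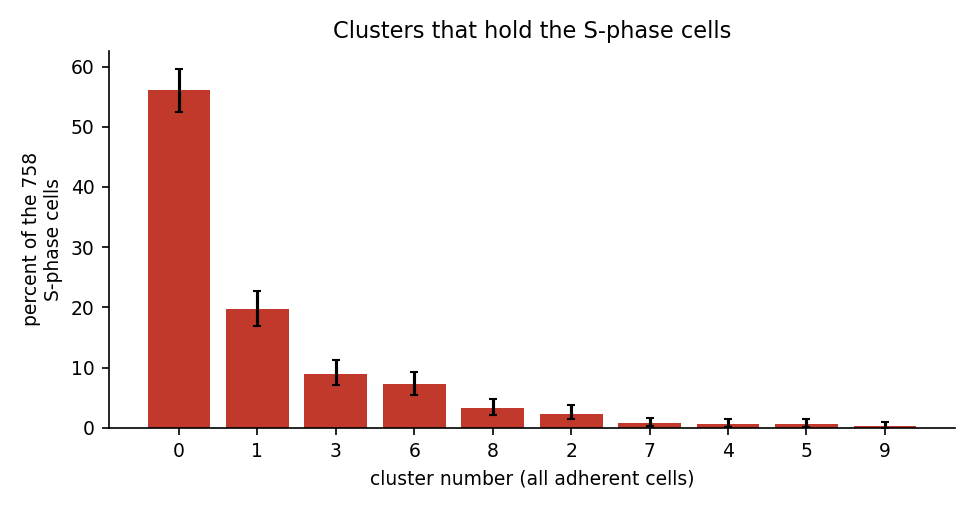
Percent of the 758 S-phase cells (y axis, from 0) in each of the 10 clusters of adherent cells (x axis, ordered by number of members). Bars carry exact 95% binomial intervals, and cluster 0 holds 56.1% and cluster 1 19.7% of the members.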

How the data were processed

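The authors deposited, for both libraries, the raw UMI count of each gene in each called cell, not normalized. The submitters' processing notes name Cell Ranger 7.0.1 and mm10, and the setting for reads in introns is not given in the sources used here. In a first step 13 mitochondrial (mt-) and 101 ribosomal (Rps, Rpl) genes were dropped. Cells with fewer than 1000 UMIs or fewer than 1250 genes (2250 in neurosphere cells) were left out next. CPM is the summed UMIs of a gene in a score group over that group's total. Ratios have exact conditional 95% intervals, CPM exact Poisson and shares exact binomial intervals, all for counting error only. Because the groups come from 1 library per culture, cells were not treated as replicates and no test was run. The ratio and interval code was tested on simulated data.

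The members and gene lists were chosen with earlier results of these data known. Genes are named if they belong to the score, to 1 of 19 lists or to the replication-dependent histones. The values of 1 listed immune marker are not reported here. Outside these, the 15 highest and 10 lowest ratios could be named, ranked after 10 was added to each CPM and limited to genes with 100 or more UMIs in the groups compared. No doublet caller was run, and cells over the 95th percentile of UMIs were left out as an alternative. Clusters came from Seurat 5.3.0 (2000 variable genes, 17 PCs, resolution 1.0) under R 4.3.3 and TMM factors from edgeR 4.0.16. Python 3.11.15 was used otherwise, with scipy 1.17.1 for intervals, numpy 2.4.6 and pandas 2.3.3 for tables, and matplotlib 3.10.9 for figures. Gene positions came from GENCODE M21, and promoter windows from RefSeq. Histone genes were matched to RefSeq symbols through synonyms and positions.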

Additional observations from a re-analysis of the deposited data

Results flagged for a closer look

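Among the listed genes with at least 100 UMIs in both libraries, 2 histone genes were at least 1.5-fold higher in the top 15% of cells in 1 culture and at least 1.5-fold lower in the other, which is why they are given here. Hist1h1c, a linker histone gene at chr13:23738808-23740367, had a log2 ratio of 0.99 in the adherent library (34.9 CPM in S-phase cells and 17.6 CPM in the bottom 50%) and of -1.02 in the neurosphere library (14.7 and 29.8 CPM). Hist1h2be, a histone H2B gene, had a log2 ratio of 1.36 in the adherent library (19.2 CPM in S-phase cells) and of -0.59 in the neurosphere library (7.89 CPM in the top 15% and 11.9 CPM in the bottom 50%). The transcript models run on past the stem-loop for 840 bases in Hist1h1c and for 1861 bases in 2 of 3 models of Hist1h2be, and in the other no stem-loop was found. With 1 library per culture the difference between the cultures was not tested, and the part that transcript ends play in it was not tested.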

How the results depend on the processing

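No paired analysis was possible because each culture gave 1 library, which also leaves no replicate to leave out. Leaving the 8 genes out of the denominator, adding mitochondrial and ribosomal UMIs to it, the top 10% or 20% of cells, the 10% mitochondrial limit, the order of filters, and TMM scaling moved none of the summary values beyond 1.5-fold (counts of genes) or their counting bounds. The G2/M list median reversed, from 0.43 to -0.34, when the 5 other genes chose the cells. That choice also gave 214 genes higher and 178 lower (369 and 293 in the report), a UMI ratio of 1.17, and medians of 0.20 for the histones and -0.15 for the adherent variable genes. The histone choice gave a G2/M median of 0.63, and equal weights 0.11 with -0.19 for the variable genes. Against all other cells, 243 genes were higher, the UMI ratio was 1.22, and medians were 0.19 (G2/M), 1.00 (histones) and 0.55 (replication lists). Within the UMI quartiles of the members, 163 genes were lower, the UMI ratio was 1.05, and medians were 0.18 (G2/M) and -0.12 (variable genes). Scoring after thinning gave a UMI ratio of 1.26 and put 7.27% of neurosphere cells over a limit reset to 0.08% (8.84% over 0.0749% before). Without cells over the 95th percentile of UMIs the G2/M median was 0.52. A minimum of 500 UMIs per gene left 174 genes higher, 51 lower and a histone median of 1.77, while 20 UMIs gave 611 and 1081. Over all alternatives the median of the 7 replication lists stayed between 0.55 and 0.82. The cause of these shifts was not tested. The share of higher genes among those past 1.5-fold was 55.7% as reported, 77.3% at 500 UMIs, 36.1% at 20 UMIs and 42.9% against all other cells. Leaving out the 3 cells with most UMIs of a gene in each group, a setting added after the data were seen, kept the sign of the 8 genes tried in S-phase cells against the bottom 50% and moved 3 of them beyond their counting bounds, Spp1 to -2.63, Lcn2 to -1.99 and Il11 to -1.37. At this depth 2636 cells held no UMI of the 5 non-histone score genes, which does not show that they lacked these transcripts.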
